A study of Mus musculus with 30 samples.

Results

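Dextran sulfate sodium (DSS) injury was measured in the distal colon of mice that had met a microbiota late, by comparing 3 libraries of treated mice with 3 libraries of untreated mice. These 6 libraries, of 30 in the series, were chosen by their labels and by no measured value. All came from C3H/HeOuJ mice that were germ-free at first, were given a specific-pathogen-free (SPF) microbiota at 5 weeks of age and were sampled at 10 weeks. The treated mice had drunk 1.5% DSS for 4 days and then plain water for 2 days, and the others had received no treatment. The 6 libraries of the same treatment in mice raised with SPF microbiota throughout, 3 treated and 3 untreated, served to test whether the response differed. RNA of whole distal colon was read as 3′ tags, so that each read marks a transcript near its poly(A) tail and a level, given as counts scaled to library size (CPM), says nothing of isoforms. The series title names macrophages, but the labels mention no cell sort. Whether each library of a group is from its own mouse is not said in the labels, and the p-values therefore measure the spread between these libraries only. Sex, cage, time of day and batch are not given in the labels. Levels are given below for the libraries DSS 1, 2 and 3 and untreated 1, 2 and 3, in that order, and ± gives a standard error.

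DSS is a sulfated sugar polymer that strips the colonic lining in patches and brings luminal bacteria into contact with the tissue beneath. The lining is a sheet of absorptive colonocytes, mucus-filled goblet cells and hormone cells, renewed from dividing cells in the crypts. Repair after injury involves crypt cells that divide, cells that crawl over the wound, and signals from immune cells. Interferon-gamma, a cytokine of T cells, natural killer cells and innate lymphoid cells, binds the receptor chains Ifngr1 and Ifngr2 and signals through the kinase Jak1. Irf1, a transcription factor induced in this way, binds interferon-stimulated response elements in the genes of antigen presentation and of the GTPases that attack vacuoles of intracellular microbes.

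Reads in genes numbered 4739066 to 6791455 per library and were 48 to 50.4% of all reads listed, while 30.3 to 34.4% aligned to several places and were not counted. The counts of libraries of 1 group differed by more than sampling noise (9.81 to 33.6 times the chi-square that noise gives, over 6 pairs), so none repeats another. The defining marker genes of distal colon were present in all 6, Car1 at 573, 1148 and 658 CPM after DSS and 1354, 1737 and 1966 CPM untreated and Muc2 at 2301, 2869 and 2754 CPM after DSS and 3343, 3022 and 4123 CPM untreated. Of the ileal markers, Apoa4 was near 0 and Defa24 was at 0 apart from 3.5 CPM in untreated 3, while Fabp6, the ileal bile acid binding protein, stood at 29.6, 40.8 and 200 CPM after DSS and 10.5, 10.2 and 51.6 CPM untreated. Library DSS 2 held genes of the exocrine pancreas, with the protease gene Ctrb1 at 224 CPM against at most 1.64 CPM in the other 5 libraries. Library DSS 1 was the highest for the transferrin receptor Tfrc (1150, 160 and 252 CPM after DSS and 93.8, 93.8 and 124 CPM untreated) and for the acute-phase gene Saa3 (64.2, 2.32 and 4.47 CPM after DSS and 0.475, 0 and 0.922 CPM untreated), neither of which passed the test. Library DSS 3 was the highest treated library for most interferon-induced genes described below.

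Of 12855 genes tested, 532 were higher (4.14%) and 386 lower (3.0%) after DSS, together 7.14% (edgeR quasi-likelihood test, Benjamini-Hochberg adjusted p under 0.05). The shares of 4.14% and 3.0% are the background for each count of called list members below. The median log2 fold change over all genes tested was 0.0066. In 917 of the 918 called genes the 3 treated libraries did not overlap the 3 untreated ones, the exception being the matrix protease gene Mmp7. Over all genes tested the groups did not overlap with DSS higher in 17.5% and with DSS lower in 17.0%. Separation of the groups, where given below for a called gene, therefore goes with the call and adds no support to it. The calls depended on which libraries were included, with 376 to 602 genes called when any 1 of the 6 was left out, the fewest without untreated 1. Of the 918 genes, 373 to 541 were still called in these fits.

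The largest rise among well expressed genes was that of Clca4b, a member of the calcium-activated chloride channel regulator family on chromosome 3 at 144910921 to 144932529 (mm10). Its level was 468, 387 and 486 CPM after DSS and 0, 2.92 and 1.84 CPM untreated (log2 fold change 8.16 ± 0.69, adjusted p = 3.3e-05). Mfsd2a, a carrier of lysophospholipids, was at 31.7, 23.7 and 37.3 CPM after DSS and 0, 0.548 and 0.737 CPM untreated (log2 fold change 6.15 ± 0.56, adjusted p = 1.1e-05). Both genes went from a level close to absence to one seen in every treated library. Ly6a, the surface protein Sca-1 of stem and progenitor cells and of activated lymphocytes, was at 3262, 4032 and 4149 CPM after DSS and 161, 111 and 169 CPM untreated (log2 fold change 4.70 ± 0.44, adjusted p = 1.9e-05), and its neighbour Ly6c1 on chromosome 15 was at 797, 555 and 1270 CPM after DSS and 51, 48 and 50.7 CPM untreated (log2 fold change 4.13 ± 0.34, adjusted p = 1.1e-05). Ly6 genes resemble each other in sequence, and their counts rest on reads that aligned to 1 place. Pla2g2a, a secreted phospholipase that kills Gram-positive bacteria, was at 2098, 3314 and 2388 CPM after DSS and 198, 154 and 169 CPM untreated (log2 fold change 3.91 ± 0.35, adjusted p = 1.1e-05). The reference annotation lists Pla2g2a as a polymorphic pseudogene, and some inbred strains carry a disrupted copy. Upp1, which breaks down uridine, was at 666, 693 and 1859 CPM after DSS and 109, 63.2 and 118 CPM untreated (log2 fold change 3.47 ± 0.58, adjusted p = 0.0037) and was far higher in DSS 3 than in the other treated libraries. Leaving out 1 library moved the fold change by over 1.5-fold for Clca4b (log2 7.53 to 8.97, without untreated 1 or untreated 2), for Mfsd2a (log2 5.53 to 6.78, without untreated 1 or untreated 3) and for Upp1 (log2 2.81 to 3.73, without DSS 3).

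Among the falls, Slc30a10, the cell-surface exporter of manganese on chromosome 1 at 185454848 to 185468762, was at 0.864, 0.845 and 0.447 CPM after DSS and 37.7, 33.2 and 30.4 CPM untreated (log2 fold change -5.48 ± 0.65, adjusted p = 0.00018). Hist1h4h, a histone H4 gene on chromosome 13 at 23531050 to 23531519, was at 2.45, 2.96 and 2.68 CPM after DSS and 73.7, 49.5 and 68.9 CPM untreated (log2 fold change -4.57 ± 0.50, adjusted p = 9.3e-05). Every treated library lay more than 10-fold below every untreated one for both genes. The level of Hist1h4h is that of its transcripts with a poly(A) tail, near which the reads lie. Cyp2c55, a colonic cytochrome P450, was at 17.1, 49.2 and 19.9 CPM after DSS and 395, 883 and 351 CPM untreated (log2 fold change -4.24 ± 0.49, adjusted p = 0.00022). Edn1, which encodes the vasoconstrictor endothelin-1, was at 13.4, 27.3 and 21.7 CPM after DSS and 347, 255 and 183 CPM untreated (log2 fold change -3.66 ± 0.64, adjusted p = 0.0066). Pck1, the committed enzyme of gluconeogenesis, was at 29.6, 41.6 and 28.4 CPM after DSS and 332, 464 and 323 CPM untreated (log2 fold change -3.49 ± 0.51, adjusted p = 0.0013), and Cpm, carboxypeptidase M, at 8.49, 25.8 and 26.8 CPM after DSS and 136, 250 and 223 CPM untreated (log2 fold change -3.33 ± 0.41, adjusted p = 0.00024). In each of these 4 genes the highest treated library lay well below the lowest untreated one. Bmp3, a signal protein of the bone morphogenetic family, fell by 2.75 on the log2 scale, and the insulin receptor substrate gene Irs2 by 2.21. The fold change moved by over 1.5-fold with 1 library left out for Cyp2c55 (log2 -4.87 to -3.70, without DSS 2).

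**Figure D1:**
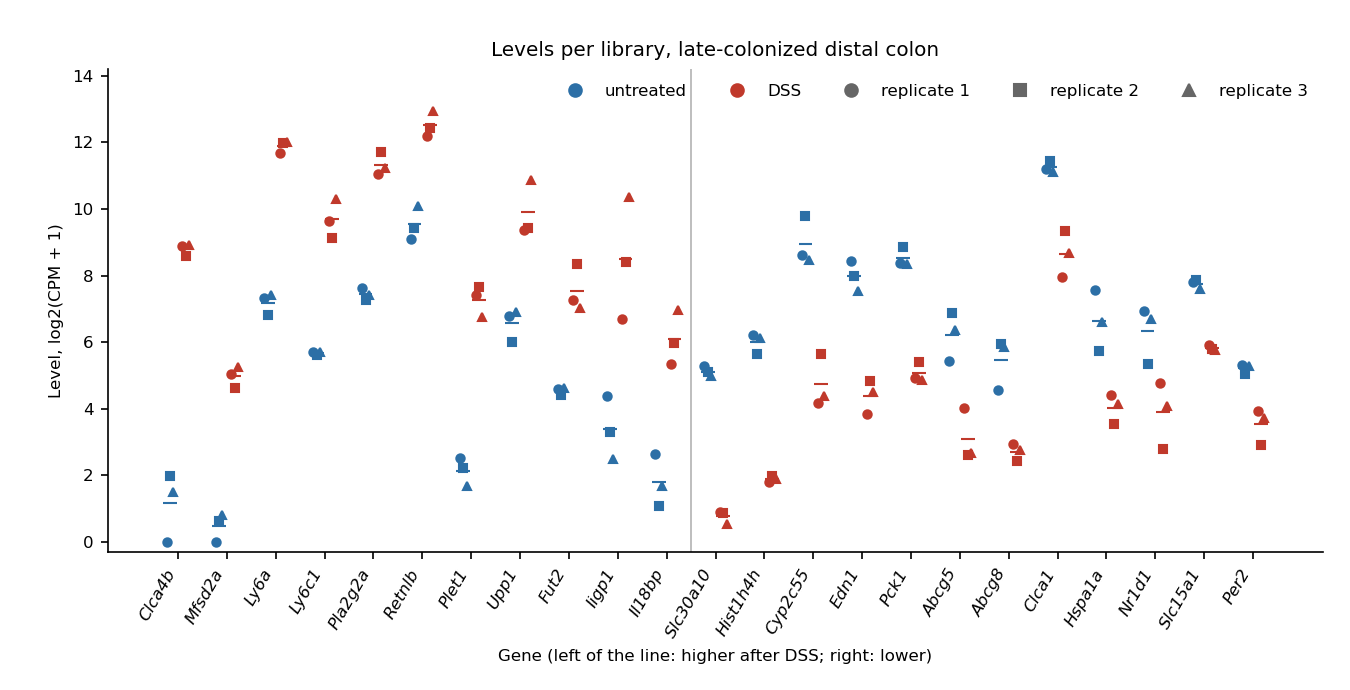
Level of 11 genes that rose and 12 that fell in each of the 6 late-colonized colon libraries, as log2 of CPM + 1, with red points for DSS, blue points for untreated, 1 symbol per replicate and a bar at the mean. The groups do not overlap in any gene shown, from the rise of Clca4b at the left to the fall of Per2 at the right. All are called genes, and 917 of the 918 called genes do not overlap, so the separation follows from the choice of genes.

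Genes induced by interferon-gamma were among the strongest rises. Of 12 tested genes of its receptor and signalling, 6 rose and none fell (median log2 fold change 1.01), against 4.14% and 3.0% of all genes tested. Of 15 tested genes of the immunity-related GTPases (IRG) and guanylate-binding proteins (GBP), 10 rose and none fell (median 2.93). The cytokine itself was nearly undetected, with 2 reads of Ifng in DSS 1 and 0 in each of the other 5 libraries, and the receptor genes Ifngr1 (0.097 ± 0.35, adjusted p = 0.91) and Ifngr2 (-0.57 ± 0.28, adjusted p = 0.24) and the kinase gene Jak1 (-0.26 ± 0.20, adjusted p = 0.48) did not pass the test. Irf1 stood at 687, 958 and 1735 CPM after DSS and 402, 315 and 307 CPM untreated (log2 fold change 1.72 ± 0.41, adjusted p = 0.018). The treated libraries of Irf1 lay above the untreated ones, with DSS 3 highest and DSS 1 closest to the untreated. Socs1, an inhibitor of Jak kinases that interferon induces, was at 12.1, 22.2 and 39.5 CPM after DSS and 6.18, 2.56 and 2.03 CPM untreated (log2 fold change 2.74 ± 0.51, adjusted p = 0.0051). Socs3, a related inhibitor of cytokine signalling, was at 73.5, 55.6 and 38.2 CPM after DSS and 4.59, 3.29 and 12 CPM untreated (log2 fold change 3.08 ± 0.60, adjusted p = 0.0091), and here DSS 1 was the highest library. Nlrc5, the transactivator of MHC class I genes and counted with them below, was at 4.75, 9.3 and 34.2 CPM after DSS and 1.11, 0.365 and 1.29 CPM untreated (log2 fold change 4.07 ± 0.80, adjusted p = 0.0078). With 1 library left out, the number of signalling genes called higher was 1 without untreated 1 and 2 without DSS 3, untreated 2 or untreated 3, and of IRG and GBP genes called higher it was 3 without untreated 2 and 4 without untreated 3. The call was lost for Irf1 (adjusted p up to 0.086) without DSS 3 or each untreated library in turn and for Socs3 (adjusted p up to 0.056) without untreated 1. A move of the fold change by over 1.5-fold with 1 library left out was seen for Socs1 (log2 2.21 to 3.40, without untreated 1), for Socs3 (log2 2.77 to 3.82, without untreated 3) and for Nlrc5 (log2 2.87 to 4.52, without DSS 3).

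The sequences before the start sites of Igtp, Irgm2 and Cxcl10 are shown because these genes rose together and because elements of the interferon response can be read in them. Each run holds 250 bases before the start and 50 from it, in RefSeq on build GRCm38.p6, on the strand of the gene. Capitals mark matches to the response element core GAAANNGAA and to the gamma-activated site core TTCNNNGAA on either strand. The windows are chr11:58199306-58199605 on the plus strand for Igtp, chr11:58214727-58215026 on the plus strand for Irgm2 and chr5:92348840-92349139 on the minus strand for Cxcl10.
Igtp: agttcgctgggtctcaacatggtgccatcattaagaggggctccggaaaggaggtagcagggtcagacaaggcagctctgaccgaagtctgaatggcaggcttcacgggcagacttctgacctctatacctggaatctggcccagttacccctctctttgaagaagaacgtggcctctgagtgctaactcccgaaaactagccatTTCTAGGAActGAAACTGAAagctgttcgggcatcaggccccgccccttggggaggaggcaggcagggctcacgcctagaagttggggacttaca
Irgm2: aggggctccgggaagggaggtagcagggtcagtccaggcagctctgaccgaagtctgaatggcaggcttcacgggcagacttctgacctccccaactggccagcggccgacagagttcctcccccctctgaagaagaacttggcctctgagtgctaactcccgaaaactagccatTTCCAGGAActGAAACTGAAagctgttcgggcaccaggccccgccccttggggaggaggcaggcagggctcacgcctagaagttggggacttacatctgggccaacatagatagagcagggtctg
Cxcl10: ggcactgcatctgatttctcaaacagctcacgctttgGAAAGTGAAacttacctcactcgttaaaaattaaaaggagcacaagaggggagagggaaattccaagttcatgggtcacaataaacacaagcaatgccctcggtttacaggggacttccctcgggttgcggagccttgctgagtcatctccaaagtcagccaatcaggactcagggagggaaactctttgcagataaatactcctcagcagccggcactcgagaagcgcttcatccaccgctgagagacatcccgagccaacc
Igtp holds TTCTAGGAA at position -45 and GAAACTGAA at -34, and Irgm2 holds TTCCAGGAA at -75 and GAAACTGAA at -64, counted from the start site to the first base of the match. The Igtp and Irgm2 windows share a run of 61 identical bases. Cxcl10 holds GAAAGTGAA at -213. Over the IRG and GBP genes with a listed promoter, GAAANNGAA was in 9 of 10 genes (81.8% of their promoters) against 8.56% of all promoters, and TTCNNNGAA in 6 of 10 (54.5%) against 8.3%. GAAANNGAA was in 6 of 7 of these genes called higher and in 3 of 3 not called. Over the other lists searched, it was in 15% of signalling, 20.8% of MHC class I, 33.3% of CXCR3 and tryptophan and 66.7% of antiviral promoters. TTCNNNGAA was in 20% of signalling, 8.33% of MHC class I, 7.69% of MHC class II and 0% of CXCR3 and tryptophan promoters. A match describes letters in the window and is not a measured binding site.

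Igtp, also called Irgm3, is a GTPase that guards host membranes and guides effector GTPases to vacuoles. It was at 60.9, 158 and 627 CPM after DSS and 24.2, 11.3 and 13.5 CPM untreated (log2 fold change 4.10 ± 0.88, adjusted p = 0.021). Irgm2, a regulator of the same kind, was at 130, 290 and 690 CPM after DSS and 57.5, 36 and 28.4 CPM untreated (log2 fold change 3.18 ± 0.64, adjusted p = 0.012). Iigp1, an effector GTPase that breaks vacuole membranes, was at 103, 339 and 1310 CPM after DSS and 20, 8.94 and 4.61 CPM untreated (log2 fold change 5.69 ± 1.08, adjusted p = 0.013). In all 3 genes DSS 3 was the highest library by more than 2-fold over DSS 2, and DSS 1 the lowest of the treated ones but still above the untreated. Gbp4, a guanylate-binding protein, was at 18, 32.5 and 164 CPM after DSS and 4.12, 3.65 and 1.47 CPM untreated (log2 fold change 4.51 ± 0.78, adjusted p = 0.0061), and Gbp8 was higher by 2.93 ± 0.48 on the log2 scale. Gbp2, of the same family, did not pass (log2 fold change 2.52, adjusted p = 0.057). Reads that match several family members were not counted, and the annotated spans of Igtp and Irgm2 overlap on the same strand, so the split between members is uncertain. A call was lost for Igtp (adjusted p up to 0.088) without each untreated library in turn and for Irgm2 (adjusted p up to 0.06) and Iigp1 (adjusted p up to 0.064) without untreated 2 or untreated 3. Leaving out 1 library moved the fold change by over 1.5-fold for Igtp (log2 2.72 to 4.59, without DSS 3), for Irgm2 (log2 2.36 to 3.60, without DSS 3), for Iigp1 (log2 4.28 to 6.42, without DSS 3 or untreated 1) and for Gbp4 (log2 3.0 to 4.98, without DSS 3). A fit of the 6 late-colonized libraries alone ended the call of Gbp4 (adjusted p = 0.052), Igtp (adjusted p = 0.066) and Iigp1 (adjusted p = 0.054). Testing all genes without the count filter ended the call of Igtp (adjusted p = 0.051).

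Antigen presentation by MHC class I rose in part. Of 24 tested genes, 8 rose and none fell (median log2 fold change 0.79). The highest fold change among them was that of Nlrc5, given above. Of the subunits that convert the proteasome to its immune form, Psmb8 was at 268, 330 and 544 CPM after DSS and 79.4, 98 and 83.7 CPM untreated (log2 fold change 2.13 ± 0.27, adjusted p = 0.00021) and Psmb9 at 232, 355 and 810 CPM after DSS and 64.2, 60.4 and 49 CPM untreated (log2 fold change 3.01 ± 0.36, adjusted p = 0.00017), while Psmb10 did not pass (1.83 ± 0.56, adjusted p = 0.071). Tap1, which carries peptides into the endoplasmic reticulum, was at 125, 182 and 313 CPM after DSS and 37.5, 18.6 and 24.9 CPM untreated (log2 fold change 2.93 ± 0.39, adjusted p = 0.00042), and the light chain gene B2m at 1466, 1846 and 2690 CPM after DSS and 779, 685 and 735 CPM untreated (log2 fold change 1.45 ± 0.29, adjusted p = 0.0066). Psmb8, Psmb9, Tap1 and B2m were higher in each treated library than in any untreated one, a separation that nearly all called genes share. The heavy chain gene H2-D1 did not pass (0.49 ± 0.24, adjusted p = 0.23). Of 11 tested genes of MHC class II presentation 3 rose (median 1.07). The peptide editor H2-DMb1 was at 251, 220 and 260 CPM after DSS and 83.2, 49.1 and 47.4 CPM untreated (log2 fold change 2.02 ± 0.34, adjusted p = 0.0022). The class II transactivator Ciita had a log2 fold change of 1.49 ± 0.61 (adjusted p = 0.16) and the invariant chain Cd74 one of 1.07 ± 0.37 (adjusted p = 0.089), and neither passed. When 1 library was left out, the number of MHC class II genes called higher was 1 without DSS 3, untreated 2 or untreated 3. The fold change moved by over 1.5-fold with 1 library left out for Nlrc5 (log2 2.87 to 4.52, without DSS 3) and for Psmb9 (log2 2.33 to 3.34, without DSS 3).

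The chemokines that draw cells bearing the receptor CXCR3 and the enzymes that use up tryptophan rose together, 5 of 6 tested genes (median log2 fold change 3.92). Cxcl9 was at 22.6, 29.6 and 53.6 CPM after DSS and 4.12, 0.73 and 0.553 CPM untreated (log2 fold change 4.22 ± 0.64, adjusted p = 0.0018) and Cxcl10 at 4.03, 21.8 and 40.9 CPM after DSS and 3.17, 1.83 and 0.184 CPM untreated (log2 fold change 3.62 ± 0.86, adjusted p = 0.024). Ido1, the enzyme that opens the tryptophan ring, was at 31.5, 7.18 and 42.2 CPM after DSS and 0, 0.548 and 0 CPM untreated, with 442 reads over the 3 treated libraries against 3 over the untreated ones, a ratio of 157 after scaling to library size (95% binomial interval 53.4 to 764, counting error only). Wars, the tryptophan tRNA synthetase, was at 251, 282 and 615 CPM after DSS and 87.1, 44.4 and 79.8 CPM untreated (log2 fold change 2.44 ± 0.48, adjusted p = 0.0082). All 4 genes were higher in each treated library than in any untreated one, and Cxcl10 in DSS 1 only narrowly. Il18bp, a secreted inhibitor of interleukin-18 that interferon-gamma induces, was at 40, 61.3 and 125 CPM after DSS and 5.23, 1.1 and 2.21 CPM untreated (log2 fold change 4.69 ± 0.65, adjusted p = 0.0011). Of 26 tested type I interferon antiviral genes 5 rose (median 0.94). Among them Ifitm3, which blocks entry of viruses, was at 348, 337 and 568 CPM after DSS and 109, 119 and 132 CPM untreated (log2 fold change 1.80 ± 0.28, adjusted p = 0.0012), and Ifi44 rose by 3.09 ± 0.55. After leaving out 1 library, the number of antiviral genes called higher was 3 without DSS 3, untreated 2 or untreated 3 and 9 without DSS 1. Calls were lost for Cxcl10 (adjusted p up to 0.092) without DSS 2, DSS 3 or each untreated library in turn. A move of the fold change by over 1.5-fold with 1 library left out was seen for Cxcl9 (log2 3.78 to 5.72, without untreated 1), for Cxcl10 (log2 2.82 to 4.41, without DSS 3 or untreated 1), for Ido1 (log2 6.49 to 10.11, without untreated 1 or untreated 2) and for Il18bp (log2 4.10 to 5.49, without untreated 1). A fit of the 6 late-colonized libraries alone ended the call of Cxcl10 (adjusted p = 0.07). Testing all genes without the count filter ended the call of Cxcl10 (adjusted p = 0.084).

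Many interferon-induced genes were uneven among the treated libraries. All 10 IRG and GBP genes called higher had their highest treated level in DSS 3 and their lowest in DSS 1, with a median ratio of highest to lowest of 7.51, against 2.47 among the untreated libraries. The same order held in 5 of 6 called signalling genes, 7 of 8 of MHC class I and 4 of 5 antiviral genes, but in 3 of 5 of the CXCR3 chemokine and tryptophan list and 1 of 3 of MHC class II, and in 30.3% of all 532 genes called higher, whose median ratio was 1.49. For both of these last lists DSS 3 was still the highest treated library of every called gene. The median ratio of highest to lowest was 2.95 among the treated and 7.45 among the untreated libraries for CXCR3 and tryptophan. For MHC class II it was 1.44 and 1.76. The median of 7.45 leaves out genes without a read in an untreated library, such as Ido1. It also rests on levels near the floor, such as those of Cxcl9 and Cxcl10 given above, and so cannot be set against 2.95. The summed level of the 17 listed IRG and GBP genes, tested or not, was 497, 1179 and 3667 CPM after DSS against 218, 123 and 107 CPM untreated. The groups did not overlap, and an exact two-sided permutation test gave p = 0.1, the smallest that 3 against 3 allows. Without DSS 3, 7 of the GTPase genes were still called (median log2 fold change 2.36), and without untreated 2, 3 were (3.07). Fabp6 was also highest in DSS 3, and the part of tissue position in this spread was not tested.

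**Figure D2:**
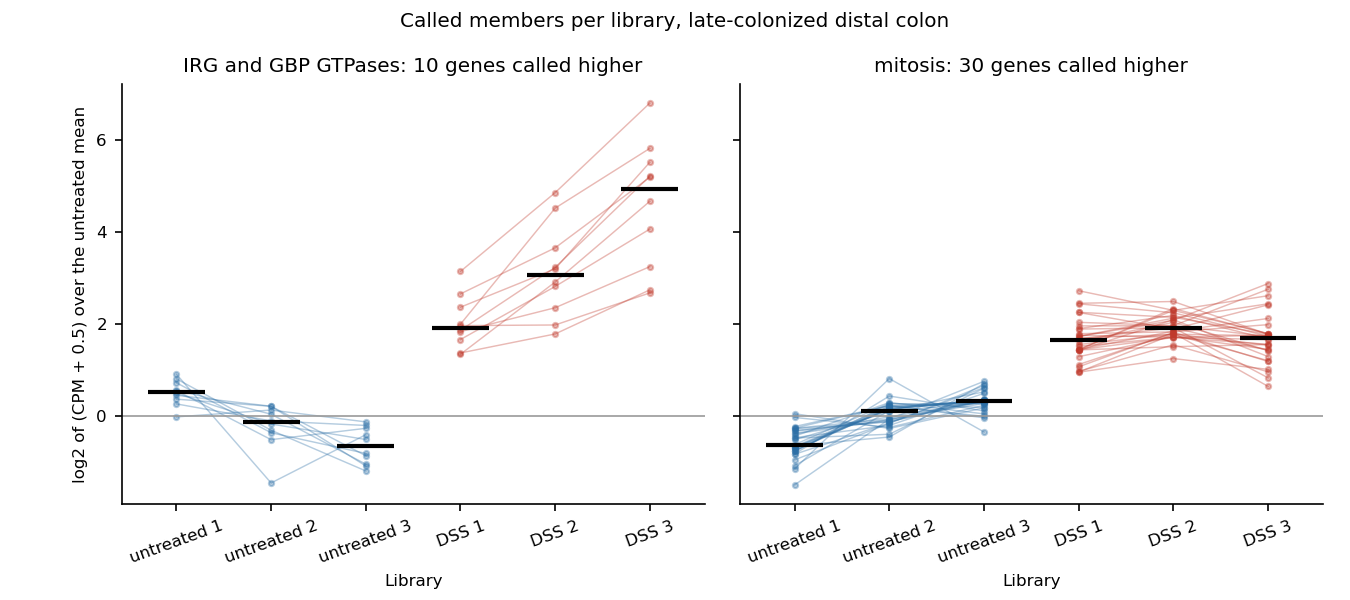
Level of the 10 IRG and GBP genes (left) and the 30 mitosis genes (right) called higher, per library, as log2 of CPM + 0.5 over the mean of the untreated libraries, with thin lines joining the points of 1 gene and bars at the median. The 10 GTPase genes are lowest in DSS 1 and highest in DSS 3 of the treated libraries, whereas the medians of the mitosis genes are close to each other in the treated libraries.

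No marker gene of the lymphocytes that make interferon-gamma was called. The 4 tested genes of cytotoxic and intraepithelial lymphocytes had a median log2 fold change of -0.43. The summed level of all 22 listed genes, most of them below the count filter, was 18.7, 14.6 and 12.7 CPM after DSS against 20.9, 13.1 and 13.6 CPM untreated (exact permutation p = 0.8), and the perforin gene Prf1 had no read. In whole tissue, fewer cells of a type and less RNA per cell cannot be told apart. Of 20 tested macrophage genes 1 rose (median -0.053), a share near that over all genes tested. This gene was Cd14, the receptor for bacterial lipopolysaccharide, which epithelial cells can also express (240, 614 and 323 CPM after DSS and 110, 115 and 138 CPM untreated; log2 fold change 1.69 ± 0.44, adjusted p = 0.031). The receptor gene Csf1r, on which macrophages depend, was at 15.7, 9.08 and 11.4 CPM after DSS and 20.8, 13.1 and 20.8 CPM untreated (adjusted p = 0.4), and Adgre1, which encodes F4/80, had a log2 fold change of -0.30 ± 0.46 (adjusted p = 0.75). Of 9 tested monocyte and neutrophil genes 3 rose (median 1.29). Ccr2, the chemokine receptor of blood monocytes, was at 12.4, 9.93 and 8.71 CPM after DSS and 1.43, 2.01 and 4.61 CPM untreated (log2 fold change 1.96 ± 0.45, adjusted p = 0.014). Plac8 was at 1723, 2006 and 1964 CPM after DSS and 727, 755 and 849 CPM untreated (log2 fold change 1.29 ± 0.26, adjusted p = 0.0065) and Ly6g, a neutrophil antigen of the Ly6 family, at 1079, 1415 and 1298 CPM after DSS and 577, 554 and 551 CPM untreated (log2 fold change 1.17 ± 0.31, adjusted p = 0.029). Plac8 and Ly6g were well expressed in untreated colon too, where the neutrophil receptor gene Csf3r had 0 reads. Their rise is therefore not a measure of neutrophils in these libraries. Neutrophil receptor genes were at the limit of detection. Csf3r had 5, 3 and 2 reads after DSS and 0, 0 and 0 untreated, and Cxcr2 had 2, 1 and 1 after DSS and 1, 0 and 0 untreated. S100a8, a calgranulin of neutrophils, was at 18.3, 6.34 and 3.13 CPM after DSS and 0.158, 1.1 and 0 CPM untreated (adjusted p = 0.24). Its partner S100a9 was at 6.76, 2.54 and 1.12 CPM after DSS and 0, 0 and 0 CPM untreated, with 64 reads over the treated libraries and 0 over the untreated ones, at least 22.7-fold higher against a floor of 3 reads over the group, but did not pass (adjusted p = 0.36). Ltf, which encodes lactoferrin of neutrophil granules and of secretory epithelium and was not on the list, was at 1.73, 2.32 and 10 CPM after DSS and 0, 0 and 0.184 CPM untreated (log2 fold change 5.81 ± 1.15, adjusted p = 0.0063), with 68 reads against 1, a ratio of 72.4 (95% binomial interval from 12.6, counting error only). S100a9 was highest in DSS 1 and Ltf in DSS 3. Of 11 tested B and plasma cell genes 1 fell, Jchain, the joining chain of secreted IgA (44.9, 77.3 and 56.5 CPM after DSS and 321, 161 and 330 CPM untreated; log2 fold change -2.19 ± 0.51, adjusted p = 0.021). With 1 library left out, the number of monocyte and neutrophil genes called higher was 1 without untreated 1 or untreated 2. The call was lost for Cd14 (adjusted p up to 0.13) and Ly6g (adjusted p up to 0.1) without DSS 2, DSS 3 or each untreated library in turn, for Ccr2 (adjusted p up to 0.085) without DSS 1, untreated 1 or untreated 2 and for Jchain (adjusted p up to 0.077) without DSS 1, DSS 3, untreated 1 or untreated 3. Leaving out 1 library moved the fold change by over 1.5-fold for Ccr2 (log2 1.64 to 2.59, without untreated 3) and for Ltf (log2 4.62 to 7.57, without DSS 3 or untreated 3). Testing all genes without the count filter ended the call of Cd14 (adjusted p = 0.078) and Jchain (adjusted p = 0.07).

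Of 18 tested cytokine and chemokine genes 4 rose and none fell (median log2 fold change 0.87). Tnf was at 3.89, 8.66 and 12.5 CPM after DSS and 0.634, 0.913 and 0.184 CPM untreated (log2 fold change 3.77 ± 0.57, adjusted p = 0.00078), and Ccl8, a chemokine for monocytes, at 43.6, 59.8 and 72.6 CPM after DSS and 12.7, 8.21 and 5.71 CPM untreated (log2 fold change 2.71 ± 0.30, adjusted p = 7.8e-05). The treated libraries were above the untreated ones throughout. Il1b, a cytokine that raises fever, was at 4.61, 8.24 and 8.26 CPM after DSS and 4.12, 1.28 and 4.06 CPM untreated (adjusted p = 0.64), so that the groups were barely apart. Cxcl1, which attracts neutrophils, had a log2 fold change of 3.07 ± 0.96 (adjusted p = 0.078). No read of Il17a or Il22 was found in the 6 libraries. Of 30 tested inflammasome and cell death genes 3 rose, beside 4.14% of all genes tested. Among them Ripk3, the kinase of necroptosis, was at 29.1, 30.2 and 37.3 CPM after DSS and 7.13, 4.56 and 8.48 CPM untreated (log2 fold change 2.25 ± 0.29, adjusted p = 0.00026).

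**Figure D3:**
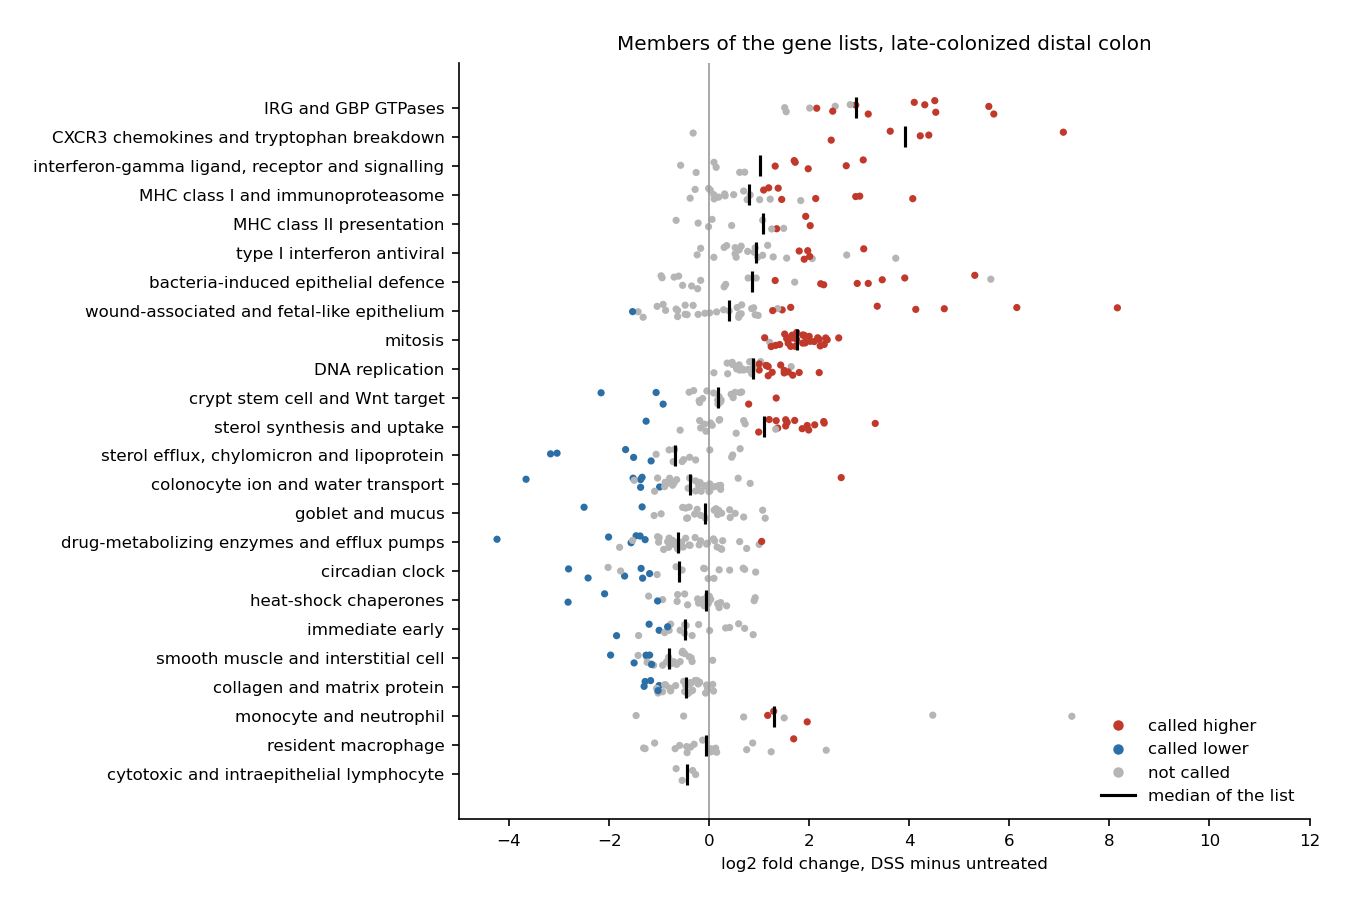
Log2 fold change (DSS minus untreated) of each tested member of the gene lists, 1 row per list, in red for members called higher, blue for called lower and grey for not called, with a bar at the list median. The medians of the IRG and GBP genes, the CXCR3 chemokines, mitosis and sterol synthesis lie to the right of 0, and those of the clock, sterol efflux, drug metabolism, smooth muscle and colonocyte transport to the left.

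Of 22 tested genes of the defence that bacteria induce in epithelium, 8 rose and none fell (median log2 fold change 0.86). The summed level of the 28 listed genes overlapped between groups (exact permutation p = 0.5). It was 26782, 33110 and 38734 CPM after DSS and 27325, 31291 and 30329 CPM untreated. Retnlb, a goblet cell protein that binds bacteria, was at 4663, 5553 and 7865 CPM after DSS and 545, 688 and 1084 CPM untreated (log2 fold change 2.96 ± 0.57, adjusted p = 0.0075). Fut2, which adds fucose to surface glycans that bacteria feed on, was at 152, 327 and 128 CPM after DSS and 23.1, 20.3 and 23.6 CPM untreated (log2 fold change 3.18 ± 0.41, adjusted p = 0.00033). Genes that make oxidants were among the 8. Nos2, inducible nitric oxide synthase, was at 43.2, 69.7 and 81.7 CPM after DSS and 4.44, 2.19 and 11.1 CPM untreated (log2 fold change 3.46 ± 0.70, adjusted p = 0.013), and Nox1, the colonic NADPH oxidase, at 29.6, 27.7 and 23 CPM after DSS and 5.55, 7.67 and 3.87 CPM untreated (log2 fold change 2.23 ± 0.29, adjusted p = 0.00028). Duoxa2, the maturation factor of dual oxidase 2, rose by 2.29 ± 0.37. The antimicrobial lectin Reg3b did not pass the test. Its log2 fold change ran from 0.34 to 6.48 over the 18 alternative fits, with a call in none. It was at 25.8, 24.3 and 1.12 CPM after DSS and 0.158, 0.183 and 26.9 CPM untreated (adjusted p = 0.78), with untreated 3 the highest of all 6 libraries. A call was lost for Nos2 (adjusted p up to 0.075) without untreated 1. The fold change moved by over 1.5-fold with 1 library left out for Nos2 (log2 3.08 to 4.27, without untreated 3).

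Genes of wound-associated and fetal-like epithelium, the state described in healing mouse colon, rose in 8 of 37 tested and fell in 1 (median log2 fold change 0.40). Of the 37, 22 had a log2 fold change above 0. The 28 not called included Clu, Anxa1, Krt7, Ptgs2 and Areg. The summed level of the 40 listed genes overlapped between groups (exact permutation p = 0.2). It was 16047, 18609 and 22032 CPM after DSS and 16819, 15114 and 13741 CPM untreated. Besides Clca4b, Mfsd2a, Ly6a and Ly6c1, given above, Ly6e rose by 1.46 ± 0.30 on the log2 scale. The cornified envelope gene Sprr1a was at 22.5, 78.2 and 143 CPM after DSS and 8.56, 7.67 and 7.37 CPM untreated (log2 fold change 3.36 ± 0.56, adjusted p = 0.0034), and Sprr2a3, of a related family, at 568, 714 and 1622 CPM after DSS and 246, 367 and 326 CPM untreated (log2 fold change 1.63 ± 0.36, adjusted p = 0.011). S100a11, a calcium-binding protein of the S100 family, was at 17.7, 23 and 21.7 CPM after DSS and 7.61, 8.58 and 9.59 CPM untreated (log2 fold change 1.27 ± 0.28, adjusted p = 0.011). The member that fell was the claudin gene Cldn4, given below. Outside this list, Plet1, a surface protein of progenitor epithelium, was at 170, 200 and 108 CPM after DSS and 4.75, 3.65 and 2.21 CPM untreated (log2 fold change 5.47 ± 0.95, adjusted p = 0.0081). Ddah1, which degrades inhibitors of nitric oxide synthase, was at 137, 167 and 85.7 CPM after DSS and 8.56, 13.7 and 14.4 CPM untreated (log2 fold change 3.41 ± 0.48, adjusted p = 0.00078). Both were among the largest rises and low in every untreated library. Wfdc18, a small secreted protein of the whey acidic protein family counted with the bacteria-induced genes, was at 19.6, 23 and 15.9 CPM after DSS and 0.158, 0.548 and 0.737 CPM untreated (log2 fold change 5.31 ± 0.59, adjusted p = 7.1e-05). Calls were lost for Sprr2a3 (adjusted p up to 0.07) without DSS 3 or untreated 1 and for S100a11 (adjusted p up to 0.068) without untreated 1. A move of the fold change by over 1.5-fold with 1 library left out was seen for Clca4b (log2 7.53 to 8.97, without untreated 1 or untreated 2), for Mfsd2a (log2 5.53 to 6.78, without untreated 1 or untreated 3), for Sprr1a (log2 2.65 to 3.81, without DSS 3) and for Sprr2a3 (log2 1.03 to 1.91, without DSS 3).

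Mitosis genes rose nearly throughout, and genes of DNA replication in part. Of 31 tested mitosis genes 30 rose and none fell (median log2 fold change 1.75), and the remaining one, Bub1, had a log2 fold change of 1.21 ± 0.41 (adjusted p = 0.085). Of 34 tested DNA replication genes 14 rose and none fell (median 0.87). The mitosis genes summed to 2163, 2322 and 2206 CPM after DSS against 411, 625 and 782 CPM untreated, without overlap (exact permutation p = 0.1). Their treated libraries differed by a median of 1.51-fold from highest to lowest. The promoters of Plk1 and Ccnb2 are printed because they hold, close to the start, the motifs typical of genes transcribed in the G2 and M phases. Capitals mark TTTGAA, the core of the cell cycle homology region, and CCAAT, the box bound by NF-Y, on either strand of windows built as above, chr7:122159185-122159484 on the plus strand for Plk1 and chr9:70421505-70421804 on the minus strand for Ccnb2.
Plk1: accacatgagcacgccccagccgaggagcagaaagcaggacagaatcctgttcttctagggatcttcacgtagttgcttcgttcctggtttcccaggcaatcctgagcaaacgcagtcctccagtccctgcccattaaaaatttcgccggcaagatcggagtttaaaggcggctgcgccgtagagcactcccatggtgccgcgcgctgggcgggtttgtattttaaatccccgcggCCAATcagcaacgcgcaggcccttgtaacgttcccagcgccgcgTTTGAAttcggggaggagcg
Ccnb2: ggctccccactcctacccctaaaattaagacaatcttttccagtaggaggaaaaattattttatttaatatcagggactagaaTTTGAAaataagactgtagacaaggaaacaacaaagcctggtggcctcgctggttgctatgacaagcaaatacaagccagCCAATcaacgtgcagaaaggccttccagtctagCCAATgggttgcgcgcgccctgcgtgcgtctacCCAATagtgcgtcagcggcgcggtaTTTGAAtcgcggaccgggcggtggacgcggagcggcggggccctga
Plk1 holds CCAAT at position -14 and TTTGAA at 31. Ccnb2 holds CCAAT at -87, -54 and -21 and TTTGAA at -167 and 5. Of the mitosis genes with a listed promoter, TTTGAA was in 18 of 26 genes (70.4% of their promoters) against 17.9% of all promoters, and CCAAT in 19 of 26 (74.1%) against 37.4%.

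Plk1, the kinase that drives entry into mitosis, was at 124, 92.1 and 115 CPM after DSS and 11.2, 20.8 and 22.9 CPM untreated (log2 fold change 2.59 ± 0.29, adjusted p = 7.5e-05). Ccnb2, cyclin B2, was at 84.2, 80.1 and 139 CPM after DSS and 12.4, 22.3 and 25.6 CPM untreated (log2 fold change 2.33 ± 0.31, adjusted p = 0.0003). No treated library came near the untreated ones in either gene. Mki67, the antigen by which dividing cells are counted, was at 76, 128 and 82.4 CPM after DSS and 21.5, 40.2 and 45.9 CPM untreated (log2 fold change 1.41 ± 0.31, adjusted p = 0.011). Top2a, topoisomerase II, rose by 1.51 ± 0.26. Of the replication genes, Rrm2, which makes deoxynucleotides, rose by 2.20 ± 0.37, Tk1, thymidine kinase, by 1.67 ± 0.29 and Ccne1, cyclin E1, by 1.80 ± 0.39, while Pcna, the sliding clamp, had a log2 fold change of 0.36 ± 0.24 (adjusted p = 0.39). Ccnd1, cyclin D1 of the G1 phase, was at 234, 350 and 274 CPM after DSS and 103, 113 and 122 CPM untreated (log2 fold change 1.34 ± 0.29, adjusted p = 0.0095). Of 23 tested crypt stem cell and Wnt target genes 2 rose and 3 fell (median 0.18), beside 4.14% and 3.0% of all genes tested. Sox9, a transcription factor of crypt base cells, was at 299, 264 and 187 CPM after DSS and 508, 441 and 619 CPM untreated (log2 fold change -1.06 ± 0.28, adjusted p = 0.029). When 1 library was left out, the number of DNA replication genes called higher was 3 without untreated 1 or untreated 2, 7 without DSS 2 and 9 without DSS 1 or DSS 3, and of stem cell genes called higher it was 0 without untreated 1 and 1 without DSS 1, DSS 2, DSS 3, untreated 2 or untreated 3, and of stem cell genes called lower it was 0 without DSS 2, DSS 3 or each untreated library in turn and 1 without DSS 1. The call was lost for Mki67 (adjusted p up to 0.066) without DSS 2 or untreated 1, for Ccne1 (adjusted p up to 0.052) without untreated 2, for Ccnd1 (adjusted p up to 0.057) without untreated 1 and for Sox9 (adjusted p up to 0.13) without DSS 2, DSS 3 or each untreated library in turn.

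Genes of the pathway that builds cholesterol rose, most of them in its steps up to lanosterol. Of 30 tested genes of sterol synthesis and uptake 15 rose and 1 fell (median log2 fold change 1.10). The window of Hmgcs1, chr13:119690101-119690400 on the plus strand, is shown because it alone among the listed promoters of these genes held the string TCACNCCAC, in capitals. This string is a form of the sterol regulatory element.
Hmgcs1: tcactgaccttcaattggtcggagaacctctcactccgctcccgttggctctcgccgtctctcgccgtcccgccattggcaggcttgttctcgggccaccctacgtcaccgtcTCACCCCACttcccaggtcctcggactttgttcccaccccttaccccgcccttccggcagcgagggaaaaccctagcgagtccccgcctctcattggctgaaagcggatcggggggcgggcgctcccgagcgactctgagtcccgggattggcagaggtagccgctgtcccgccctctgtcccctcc
The match TCACCCCAC lies at position -137. Of 21 genes of the list with a listed promoter, Hmgcs1 alone held this motif, which 1.24% of all promoters hold. Only this exact string was searched for, so other forms of the element are not covered. Hmgcs1, the synthase that starts the pathway, was at 1028, 1250 and 2546 CPM after DSS and 449, 457 and 307 CPM untreated (log2 fold change 1.99 ± 0.35, adjusted p = 0.0028). Further down, Fdps, which makes farnesyl diphosphate, was at 143, 218 and 164 CPM after DSS and 42.6, 37.1 and 27.1 CPM untreated (log2 fold change 2.29 ± 0.25, adjusted p = 7.1e-05), and Fdft1, squalene synthase, at 239, 258 and 247 CPM after DSS and 70.8, 38.2 and 63.4 CPM untreated (log2 fold change 2.11 ± 0.25, adjusted p = 0.00015). The 3 genes were higher in each treated library than in any untreated one. Acat2 (1.86 ± 0.30), Pmvk (1.53 ± 0.26), Mvd (1.96 ± 0.29), Lss (1.71 ± 0.29), Cyp51 (1.56 ± 0.21) and Msmo1 (1.53 ± 0.20) rose as well. The gene that fell was Mylip, a ubiquitin ligase that oxysterols induce, at 15.8, 16.3 and 9.82 CPM after DSS and 34.7, 32.3 and 33.9 CPM untreated (log2 fold change -1.26 ± 0.33, adjusted p = 0.028). A call was lost for Mylip (adjusted p up to 0.12) without each of the 6 libraries in turn.

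RNA for sterol export was lower. Of 17 tested genes of sterol efflux and lipoproteins 5 fell and none rose (median -0.69). The paired transporters that return sterols to the lumen were lower, Abcg5 at 15.4, 5.07 and 5.36 CPM after DSS and 42.5, 116 and 80.7 CPM untreated (log2 fold change -3.17 ± 0.50, adjusted p = 0.002) and Abcg8 at 6.62, 4.44 and 5.81 CPM after DSS and 22.7, 60.6 and 56.8 CPM untreated (log2 fold change -3.04 ± 0.47, adjusted p = 0.0013). Apoe, an apolipoprotein that carries exported cholesterol, was at 68.9, 78.2 and 72.1 CPM after DSS and 318, 155 and 224 CPM untreated (log2 fold change -1.67 ± 0.31, adjusted p = 0.0041). None of the 3 overlapped between groups. Among 23 tested genes of fatty acid synthesis 4 rose and 1 fell (median 0.19), and Fasn, fatty acid synthase, did not pass (0.71 ± 0.22, adjusted p = 0.059). After leaving out 1 library, the number of efflux genes called lower was 3 without DSS 3 or untreated 1, and of fatty acid synthesis genes called higher it was 1 without untreated 2 and 2 without untreated 3. Leaving out 1 library moved the fold change by over 1.5-fold for Abcg5 (log2 -3.92 to -2.80, without DSS 1).

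**Figure D4:**
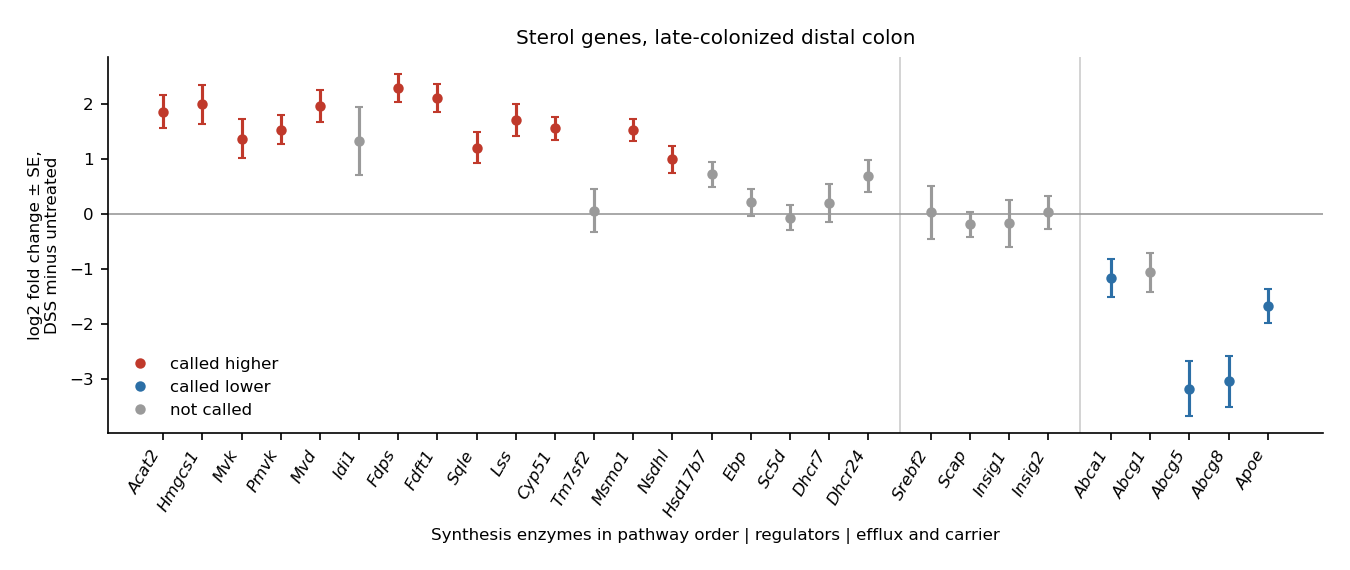
Log2 fold change (DSS minus untreated, with standard errors) of sterol genes, with synthesis enzymes in pathway order, regulators and efflux genes in blocks, red for called higher, blue for called lower and grey for not called. The called synthesis genes lie above 0, and Abcg5, Abcg8 and Apoe below it.

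Genes of mature colonocytes fell in part. Of 37 tested genes of ion and water transport 6 fell and 1 rose (median log2 fold change -0.39). The gene that rose was Aqp4, a water channel of the basolateral membrane, at 328, 782 and 228 CPM after DSS and 98.2, 48.4 and 68.6 CPM untreated (log2 fold change 2.64 ± 0.50, adjusted p = 0.0073). Aqp8, the water channel of surface colonocytes, was at 247, 709 and 545 CPM after DSS and 1507, 1301 and 1065 CPM untreated (log2 fold change -1.37 ± 0.33, adjusted p = 0.019). Slc26a3, the chloride and bicarbonate exchanger, was at 826, 830 and 940 CPM after DSS and 1700, 1563 and 1883 CPM untreated (log2 fold change -0.99 ± 0.26, adjusted p = 0.029). Slc20a1, a phosphate carrier, was at 344, 270 and 249 CPM after DSS and 790, 707 and 689 CPM untreated (log2 fold change -1.34 ± 0.25, adjusted p = 0.0043). The groups did not overlap in these 4 genes. Cldn4, a tight junction claudin, was at 70.4, 76.9 and 67.9 CPM after DSS and 268, 180 and 172 CPM untreated (log2 fold change -1.53 ± 0.26, adjusted p = 0.0024). In all, 2 of 26 tested junction genes fell and 1 rose (median -0.0081), beside 3.0% and 4.14% of all genes tested. Among carriers of peptides and amino acids, Slc15a1, the peptide carrier PepT1, was at 59, 54.1 and 53.6 CPM after DSS and 225, 231 and 192 CPM untreated (log2 fold change -1.96 ± 0.31, adjusted p = 0.0014), whereas Slc7a9, a carrier of cystine and basic amino acids, was higher at 33.5, 21.3 and 48.7 CPM after DSS and 7.13, 5.11 and 6.45 CPM untreated (log2 fold change 2.46 ± 0.44, adjusted p = 0.003). With 1 library left out, the number of transport genes called lower was 3 without DSS 3 or untreated 1, and of junction genes called lower it was 1 without each of the 6 libraries in turn. Calls were lost for Aqp8 (adjusted p up to 0.084) without DSS 1, DSS 3, untreated 1 or untreated 2 and for Slc26a3 (adjusted p up to 0.11) without each of the 6 libraries in turn. The fold change moved by over 1.5-fold with 1 library left out for Aqp4 (log2 1.96 to 2.94, without DSS 2).

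Of 25 tested goblet cell genes 2 fell and none rose (median -0.078), beside 3.0% and 4.14% of all genes tested. Clca1, a protease secreted into mucus, was at 247, 650 and 406 CPM after DSS and 2363, 2786 and 2218 CPM untreated (log2 fold change -2.50 ± 0.56, adjusted p = 0.017), while Muc2, the mucin of the colonic mucus layer, had a log2 fold change of -0.40 ± 0.49 (adjusted p = 0.67). Drug-metabolizing enzymes and efflux pumps fell in 6 of 42 tested and rose in 1 (median -0.61). Besides Cyp2c55, Abcb1a, the efflux pump P-glycoprotein, was at 110, 172 and 130 CPM after DSS and 563, 687 and 411 CPM untreated (log2 fold change -2.01 ± 0.40, adjusted p = 0.0068). From the list of bile acid handling, Slc51b, a subunit of the basolateral exporter, was higher at 37.1, 59.2 and 52.7 CPM after DSS and 11.1, 6.02 and 9.4 CPM untreated (log2 fold change 2.48 ± 0.36, adjusted p = 0.0006). Among 21 tested enteroendocrine genes 3 fell and 2 rose (median -0.41). Those that fell were Pcsk1n, which encodes the prohormone convertase inhibitor proSAAS, at 1.58, 3.17 and 1.12 CPM after DSS and 9.19, 7.85 and 16.4 CPM untreated (log2 fold change -2.51 ± 0.52, adjusted p = 0.0081), Scg5, a secretory granule chaperone, by 0.78 ± 0.22, and Cpe, a prohormone-processing enzyme, by 1.45 ± 0.24. The hormone gene Cck rose by 3.67 ± 1.06, and Neurog3, the transcription factor that starts endocrine fate, was higher at 20.9, 8.45 and 26.3 CPM after DSS and 2.85, 0.913 and 5.35 CPM untreated (log2 fold change 2.61 ± 0.62, adjusted p = 0.019). The hormone gene Pyy did not pass (-0.41 ± 0.25, adjusted p = 0.36). Outside the list, the hormone gene Ppy was among the largest falls, at 18.7, 31.7 and 15 CPM after DSS and 120, 134 and 123 CPM untreated (log2 fold change -2.53 ± 0.29, adjusted p = 9.3e-05). When 1 library was left out, the number of goblet cell genes called lower was 0 without DSS 1, DSS 3, untreated 1 or untreated 2 and 1 without DSS 2 or untreated 3, and of enteroendocrine genes called higher it was 0 without untreated 1 or untreated 2 and 1 without DSS 1, DSS 2, DSS 3 or untreated 3. The call was lost for Clca1 (adjusted p up to 0.069) without DSS 1, DSS 3, untreated 1 or untreated 2, for Scg5 (adjusted p up to 0.13) without each of the 6 libraries in turn, for Cck (adjusted p up to 0.32) without DSS 1, DSS 2 or each untreated library in turn and for Neurog3 (adjusted p up to 0.092) without DSS 3, untreated 1 or untreated 2. A move of the fold change by over 1.5-fold with 1 library left out was seen for Cyp2c55 (log2 -4.87 to -3.70, without DSS 2), for Cck (log2 2.03 to 4.15, without DSS 1) and for Neurog3 (log2 2.19 to 3.27, without untreated 3). Testing all genes without the count filter ended the call of Cck (adjusted p = 0.055), Clca1 (adjusted p = 0.069) and Scg5 (adjusted p = 0.079).

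The circadian clock, a loop in which Clock and Arntl drive the Per, Cry and Nr1d genes that in turn repress them, was lower in part. Of 20 tested genes 6 fell and none rose (median log2 fold change -0.60). Per2 was at 14.4, 6.55 and 12.3 CPM after DSS and 38.5, 32.1 and 37.8 CPM untreated (log2 fold change -1.69 ± 0.31, adjusted p = 0.0038). Hlf, a transcription factor of its output, was at 0.72, 2.32 and 0.893 CPM after DSS and 8.24, 10.6 and 8.48 CPM untreated (log2 fold change -2.81 ± 0.60, adjusted p = 0.0095). Nr1d1, the repressor Rev-erb alpha, was at 26.6, 5.92 and 16.1 CPM after DSS and 122, 39.6 and 103 CPM untreated (log2 fold change -2.42 ± 0.61, adjusted p = 0.035). The groups did not overlap in these 3 genes, and Nr1d1 varied most. Per3 did not pass (-1.77 ± 0.59, adjusted p = 0.078), nor did the drivers Arntl (0.20 ± 0.37, adjusted p = 0.79) and Clock (-0.02 ± 0.22, adjusted p = 0.97). The labels give no time of day, and a difference in sampling time was not tested. Heat-shock genes fell in 3 of 26 tested and rose in none (median -0.068). Hspa1a was at 20.4, 10.6 and 16.5 CPM after DSS and 189, 52.2 and 96 CPM untreated (log2 fold change -2.82 ± 0.47, adjusted p = 0.0025), and its near-identical neighbour Hspa1b at 52.7, 41.8 and 59.4 CPM after DSS and 330, 99.5 and 224 CPM untreated (log2 fold change -2.09 ± 0.42, adjusted p = 0.0083). The untreated libraries ranged widely, with untreated 1 highest, and the split of reads between the pair is uncertain. Immediate early genes fell in 4 of 20 tested (median -0.49), with Fosl2, a subunit of the factor AP-1, at 298, 194 and 202 CPM after DSS and 399, 710 and 488 CPM untreated (log2 fold change -1.20 ± 0.25, adjusted p = 0.0082). After leaving out 1 library, the number of clock genes called lower was 2 without DSS 3 or untreated 1 and 3 without DSS 2, untreated 2 or untreated 3, and of immediate early genes called lower it was 1 without DSS 3, untreated 1 or untreated 2 and 2 without DSS 1 or DSS 2. A call was lost for Nr1d1 (adjusted p up to 0.12) without DSS 2, DSS 3, untreated 1 or untreated 3 and for Fosl2 (adjusted p up to 0.053) without untreated 2. Leaving out 1 library moved the fold change by over 1.5-fold for Hlf (log2 -3.47 to -2.47, without DSS 2) and for Hspa1a (log2 -3.16 to -2.22, without untreated 1). Testing all genes without the count filter ended the call of Nr1d1 (adjusted p = 0.1).

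Genes of the muscle coat and stroma were lower in part. Of 25 tested smooth muscle and interstitial cell genes 5 fell and none rose (median log2 fold change -0.81). Pgm5, a smooth muscle adhesion protein, was at 56.6, 79 and 94.7 CPM after DSS and 172, 160 and 179 CPM untreated (log2 fold change -1.15 ± 0.23, adjusted p = 0.0072), with no overlap. Myh11, the smooth muscle myosin, was at 145, 256 and 715 CPM after DSS and 533, 700 and 592 CPM untreated (adjusted p = 0.39), and DSS 3 was the highest of all 6 libraries. The list summed to 3473, 6803 and 9369 CPM after DSS against 10761, 12369 and 10757 CPM untreated (exact permutation p = 0.1). The order of the treated libraries is also that of the 10 IRG and GBP genes called higher, and a part of muscle content in their spread was not tested. Of 35 tested collagen and matrix genes 5 fell and none rose (median -0.47). Dcn, the fibroblast proteoglycan decorin, was at 201, 205 and 208 CPM after DSS and 480, 476 and 422 CPM untreated (log2 fold change -1.17 ± 0.26, adjusted p = 0.011), while the collagen gene Col1a1 did not pass (-0.24 ± 0.24, adjusted p = 0.6). Timp3, an inhibitor from the list of matrix proteases, was at 74.8, 78.2 and 63.2 CPM after DSS and 178, 170 and 163 CPM untreated (log2 fold change -1.24 ± 0.23, adjusted p = 0.004). None of the 20 tested endothelial genes was called (median -0.33). Of 25 tested genes of enteric neurons and glia 1 fell (median -0.77), a share near the 3.0% lower over all genes tested. With 1 library left out, the number of smooth muscle genes called lower was 2 without DSS 1, untreated 2 or untreated 3 and 3 without untreated 1, and of matrix genes called lower it was 2 without DSS 1, untreated 1 or untreated 3 and 3 without DSS 3.

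The response to DSS was compared with that of SPF mice given the same treatment. No gene passed the test of the difference between both responses, with 0 of 12855 called by edgeR (0.00%), 1122 genes at an unadjusted p under 0.05 and 17 called by DESeq2. Of the 918 genes called in late-colonized mice, 901 moved in the same direction in SPF mice and 705 were called there in that direction. The 918 were picked by their call, and the share moving alike over all genes tested was not computed. These 2 counts therefore have no background to be set against. The SPF response had more calls, 1570 higher and 1527 lower of 12855 genes tested, against 532 and 386 in late-colonized mice. Both responses share the fit but no library. The lowest adjusted p of the difference was 0.37. Hspa1a stood at 16.8, 42.7 and 26 CPM after DSS and 28.4, 23 and 13.7 CPM untreated in SPF mice, against the fall in late-colonized mice given above (difference of log2 fold changes -3.22 ± 0.64, unadjusted p = 0.00016, adjusted p = 0.38). Cyp2d26, a cytochrome P450, was at 3.17, 4.23 and 3.8 CPM after DSS and 9.19, 10.8 and 12.9 CPM untreated in late-colonized mice and at 0.547, 1.57 and 0.481 CPM after DSS and 26, 13.9 and 17.1 CPM untreated in SPF mice (difference 2.84 ± 0.60, unadjusted p = 0.00018, adjusted p = 0.38). The immune proteasome gene Psmb8 had a difference of -1.09 ± 0.37 (unadjusted p = 0.0084) and the sterol transporter Abcg8 one of -2.07 ± 0.65 (unadjusted p = 0.0057). These genes were chosen after their values were seen, and none passed the correction.

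**Figure D5:**
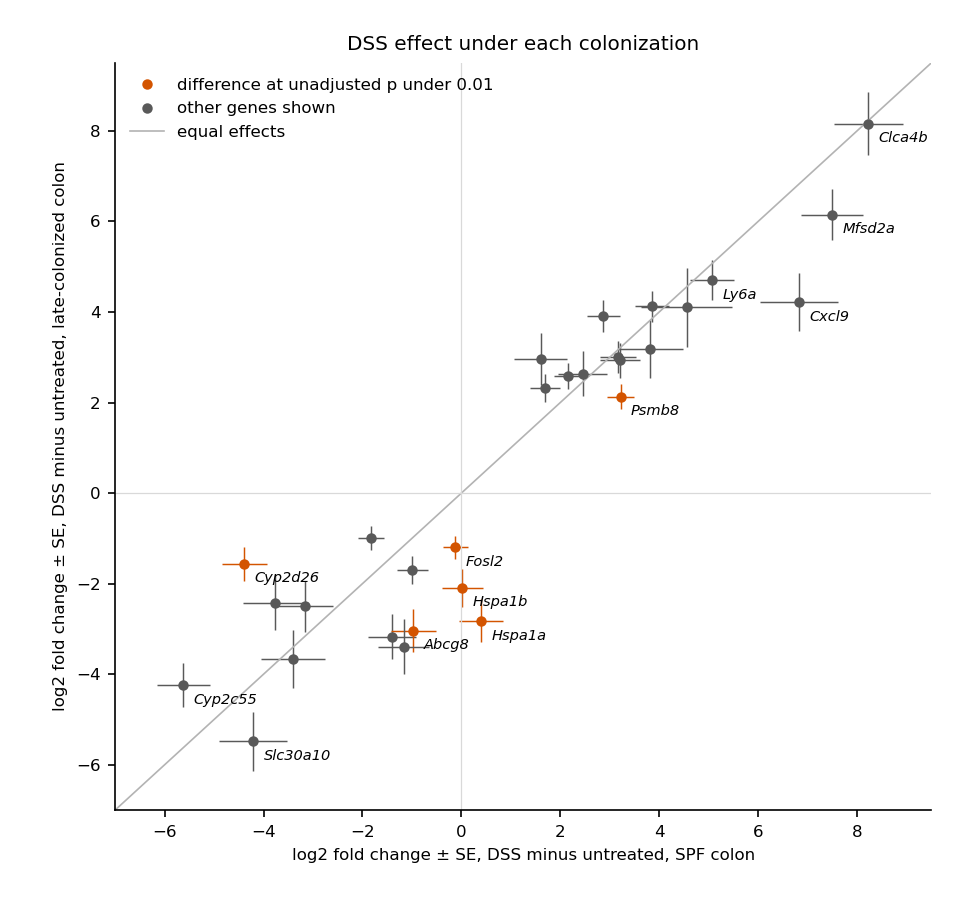
Log2 fold change (DSS minus untreated) in late-colonized mice against that in SPF mice for 29 genes, with standard errors and a line of equal effects. The 6 genes in orange, among them Hspa1a, Cyp2d26 and Psmb8, have an unadjusted p under 0.01 for the difference, and none is past the adjusted threshold.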

How the data were processed

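The deposited tables, 1 per library, hold whole-number counts of reads for 24746 gene symbols. Per the submitters' processing notes, reads were handled with Trimmomatic 0.36, FastQC 0.11.5, STAR 2.5.3a and HTSeq on mm10. The annotation and the strand setting are not given in the sources used here, so antisense and overlapping genes cannot be told apart. Summary lines that name no gene, among them reads aligned to several places (30.3 to 34.4% of reads listed), were left out. Positions are from GENCODE vM21, in which 24160 symbols matched 1 gene.

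The 12 colon libraries in 4 groups were fitted together with edgeR 4.0.16 in R 4.3.3 (genes filtered by filterByExpr, TMM scaling, quasi-likelihood test with robust fitting, biological coefficient of variation 0.28), with Benjamini-Hochberg adjustment over 12855 genes and a call at adjusted p under 0.05. The fit was tested on simulated data. CPM uses TMM-scaled totals, and a standard error is the log2 fold change over the square root of F. DESeq2 1.42.0, no filter, other scaling, only 6 libraries, a replicate block and leaving out each library were alternatives. Intervals cover counting error only. Replicate numbers come from the titles. Residuals of same-numbered libraries were correlated at r = 0.114, -0.0403 and 0.0562, so the numbers were not taken to pair them.

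The members and the 47 gene lists (1209 genes, 1197 in the files, 999 tested) were chosen with earlier results of these data known, from general knowledge of the roles of the genes. Named genes are the 20 largest rises and falls whose groups do not overlap and whose log2 CPM averages 3 or more, up to 6 called members of each list, and fixed genes; not all are reported, and further list members were named after their values were seen. Promoters are RefSeq windows on GRCm38.p6, the same assembly as mm10. Some list members are counted in the lists but not reported here by name.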

Additional observations from a re-analysis of the deposited data

How the results depend on the processing

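DESeq2 called 1463 genes (810 higher, 653 lower), and edgeR on the 6 late-colonized libraries alone called 1839 (942 higher, 897 lower). The cause of the larger counts was not tested, and 917 and 890 of the 918 genes called in the 12-library fit were among them. Taking out the count filter (907 called) or using the scaling of DESeq2 (912) kept all 3 counts within 1.5 times. With the replicate block, 767 genes were called (467 higher, 300 lower), 728 of them shared, and with the block in the 6 libraries alone 1710 (859 higher, 851 lower). Leaving out 1 of the 6 late-colonized libraries or 1 of the 6 SPF libraries gave 376 to 1183 called genes, 224 to 653 higher and 152 to 530 lower. The fewest came without untreated 1 (376) and the most without the third untreated SPF library (1183). For the difference from SPF mice, DESeq2 called 17 genes, and leaving out 1 library gave 0 to 1. The sign of 2 genes that were not called turned with the left-out library. The log2 fold change ran from -0.043 to 0.28 for Ifngr1 and from -0.11 to 0.13 for Clock. Among the named genes, the block ended the call of Cxcl10 (adjusted p = 0.053), Mmp7 (0.12), Scg5 (0.058), Steap4 (0.072) and Cck (0.11) in the 12 libraries, and that of Iigp1 (0.17), Cxcl10 (0.13), Mmp7 (0.11), Igtp (0.083) and Irgm2 (0.054) in the 6 alone. Mmp7 was also not called without the count filter (0.056) or in the 6 libraries without the block (0.088). With 1 of the 6 libraries left out, the calls ran from 0 to 1 higher for macrophages and the respiratory chain, 0 to 2 lower for B and plasma cells, 0 to 2 higher and 1 to 2 lower for metal handling, 1 to 2 higher for the unfolded protein response and 0 to 1 in either direction for stem cell genes, and no gene of enteric neurons and glia was called. Genes of families whose reads align to several places are limited by the uncounted reads, and genes with few reads, such as Csf3r, by depth. With 3 libraries per group, a gene that did not pass is not shown to be unchanged.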

Other observations

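Calls among metabolic genes outside the sterol pathway differed by list, beside 4.14% higher and 3.0% lower over all genes tested. Of 33 tested genes of PPAR-alpha and fatty acid oxidation 4 fell and none rose (median log2 fold change -0.13), among them the receptor gene Ppara at 13.1, 19.9 and 10.9 CPM after DSS and 33.9, 33.4 and 31.9 CPM untreated (log2 fold change -1.18 ± 0.28, adjusted p = 0.018). Of 30 tested genes of glycolysis and hypoxia 3 rose and none fell (median 0.19). When 1 library was left out, the number of oxidation genes called lower was 0 without untreated 1, 1 without DSS 1, DSS 3 or untreated 2 and 2 without untreated 3, and of glycolysis genes called higher it was 0 without DSS 3, untreated 1 or untreated 3 and 1 without untreated 2. The respiratory chain had 1 of 48 tested genes higher (median 0.27), and ribosome biogenesis and polyamine synthesis none of 29 in either direction (median 0.45). Of 25 tested genes of metal handling 2 rose and 2 fell (median 0.15). Besides Slc30a10, the fall was that of Fth1, the ferritin heavy chain that stores iron, at 1850, 1587 and 1291 CPM after DSS and 3448, 2934 and 3074 CPM untreated (log2 fold change -1.0 ± 0.24, adjusted p = 0.019), while Steap4, a metal reductase, was higher, at 4.89, 7.61 and 6.03 CPM after DSS and 2.85, 2.01 and 1.47 CPM untreated (log2 fold change 1.52 ± 0.44, adjusted p = 0.044). In the unfolded protein and amino acid response 3 of 29 tested genes rose and 1 fell (median 0.29), among them Phgdh, the entry enzyme of serine synthesis, at 13.1, 17.1 and 16.5 CPM after DSS and 4.28, 1.83 and 4.24 CPM untreated (log2 fold change 2.16 ± 0.48, adjusted p = 0.012). The groups did not overlap in any of the 4 genes given with levels. Calls were lost for Ppara (adjusted p up to 0.081) without DSS 1, DSS 3 or each untreated library in turn, for Fth1 (adjusted p up to 0.091) without DSS 2, DSS 3, untreated 1 or untreated 3, for Steap4 (adjusted p up to 0.15) without each of the 6 libraries in turn and for Phgdh (adjusted p up to 0.064) without untreated 2. Testing all genes without the count filter ended the call of Steap4 (adjusted p = 0.06).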
